A study of Mus musculus with 12 samples.

Results

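Of the 7153 transcripts in the study's assembled transcript table, 1589 carry no gene name. Among these rows they were chosen by that criterion alone, and the measured values played no part in it. Transcript numbers in the table reach 123574, so it holds only part of a longer list. How its rows were selected is not given in the sources used here. The other 5564 transcripts carry a gene name. The cells were C17.2, an established mouse neural progenitor line, and RNA came from isolated mitochondria or isolated nuclei of the same line. All cells were of strain background CD1 x C57BL/6 and were grown in serum-containing DMEM/F12. At 0 h they were sampled at baseline. The other samples were taken 1 h and 2 h after neural differentiation was induced by a change of medium to Knockout DMEM, GlutaMAX supplement and N2 supplement. The labels name no other treatment and no genetic change, and every library of 1 h or 2 h had the new medium. Libraries were made from total RNA after depletion of ribosomal RNA. Each of the 6 groups has 2 libraries, but the transcript table used here holds 11, with nuclei 1 h represented by replicate 2 alone. The design text calls the replicates biological without further detail, so p-values measure the spread between these libraries.

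A transcript assembler joins overlapping aligned reads into exon chains and gives each chain its own identifier. A chain that matches no annotated transcript keeps only that identifier, written here as MSTRG, a locus number and a transcript number. Such chains can be alternative isoforms of known genes, stretches inside introns or between genes, or alignments over gene copies. A processed pseudogene is a copy of a spliced mRNA inserted elsewhere in the genome, which usually lacks introns and can differ from its parent mRNA at few bases. RNase P RNA, encoded by Rpph1, is the catalytic RNA of the enzyme that trims the 5′ ends of precursor tRNAs in the nucleus. Values are FPKM, the fragments of a transcript divided by its length and by the library's total, as deposited unless called scaled.

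The libraries differed little in depth, since 1 FPKM corresponded to a mean read coverage of 2.10 to 2.84 per base. The median coverage of the tested unnamed transcripts was 3.16 to 9.09 per base and library. The cells carried the progenitor markers Vim (133 to 230 FPKM) and Nes (9.06 to 16.9), with Sox2 at 0.92 to 3.60 and the neuronal marker Tubb3 at 2.07 to 4.49. None of the 3 astrocyte markers is among the named transcripts of the table, which is itself part of a longer list. The mitochondrial rRNA mt-Rnr2 reached 7769 to 18041 FPKM over all libraries, and the nuclear RNA Malat1 6.07 to 72.1. The label of the cells was not contradicted by these levels. RNAs of the mitochondrial chromosome made up 2.28% to 4.41% of FPKM in mitochondria libraries and 1.93% to 3.61% in nuclei libraries. These ranges overlap, although at each time the mitochondria libraries were higher. Mitochondria 0 h replicate 2, mitochondria 1 h replicate 1 and nuclei 0 h replicate 1 stood apart from their partners in the gene table, and counts of calls without them are given beside the main ones. Leaving them out leaves a single library in every group except those of 2 h. The spread then comes from the 2 h libraries alone, so a call lost there need not have rested on the libraries left out. Of 50 calls on transcripts picked one by one, 42 missed the threshold without these 3 libraries (limma), with no change of sign. Among the 8 that still passed were MSTRG.3762.1, MSTRG.1881.1 and MSTRG.1775.1 in nuclei at 1 h, MSTRG.1387.1 in nuclei at 2 h and MSTRG.4687.1 between fractions.

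The sequences under a few abundant unnamed transcripts are shown because they recur. Assembled loci MSTRG.5622, MSTRG.15924 and MSTRG.994 lie over Gm23935, Gm24270 and Gm25911, which GENCODE M21 lists as miRNA genes of 56 or 57 bases. These sit at chr16:11144125-11144181 on the plus strand, chr9:56223715-56223771 on the minus strand and chr1:167340369-167340424 on the minus strand of GRCm38. Gm24187 (chr13:9834469-9834525, minus strand) has the same length as Gm23935, but no unnamed transcript lies over it. Capitals mark bases that differ from Gm23935.
Gm23935: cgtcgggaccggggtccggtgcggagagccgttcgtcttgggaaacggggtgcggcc
Gm24270: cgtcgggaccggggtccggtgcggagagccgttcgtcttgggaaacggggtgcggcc
Gm25911: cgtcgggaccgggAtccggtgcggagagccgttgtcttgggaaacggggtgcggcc
Gm24187: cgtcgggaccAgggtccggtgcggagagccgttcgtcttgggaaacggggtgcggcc
The first pair is identical over all 57 bases. Gm25911 carries G14A and lacks 1 base, and Gm24187 carries G11A, with positions counted from 1 at the 5′ end of Gm23935. Gm24245 on chromosome 4 is a further identical copy.

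MSTRG.4687.1 lies over Rpph1 (chr14:50807449-50807767, minus strand) and is written as 2 exons whose summed length of 303 bases falls 21 bases short of its span of 324. The table does not say where the gap lies. A stretch of Rpph1 at chr14:50807485-50807646 is shown because it holds an exact tandem repeat of the length of that gap, marked in capitals.
Rpph1: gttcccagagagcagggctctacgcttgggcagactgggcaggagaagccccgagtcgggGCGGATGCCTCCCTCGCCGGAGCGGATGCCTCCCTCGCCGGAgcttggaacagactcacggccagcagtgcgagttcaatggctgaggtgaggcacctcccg
The repeat unit of 21 bases occupies bases 182 to 223 of Rpph1 as a direct pair. Of the 57 unnamed transcripts of 2 exons, 14 have such a gap under 50 bases, from 21 to 46. Among the 181 named transcripts of 2 exons, 2 do. The short gaps include all 5 transcripts of MSTRG.15924, both of MSTRG.5622, MSTRG.994.1, and transcripts over Malat1 and Neat1. MSTRG.4687.1 was the only one of the 14 over an annotated transcript with an exact tandem repeat of the gap's length.

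MSTRG.1387.1 and MSTRG.3813.1 lie over the processed pseudogenes Gm10145 (shown at chr10:27936364-27936453, plus strand) and Gm6988 (shown at chr12:110315990-110316079, plus strand). Their best coding matches are Ube2l3, a ubiquitin-conjugating enzyme, and Rps25, a protein of the small ribosomal subunit. The first 90 bases of each coding sequence are set below the pseudogene, with the differing base in capitals, to show how little sequence separates copy and parent.
Gm10145: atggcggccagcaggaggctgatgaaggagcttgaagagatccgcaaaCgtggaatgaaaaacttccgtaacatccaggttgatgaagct
Ube2l3: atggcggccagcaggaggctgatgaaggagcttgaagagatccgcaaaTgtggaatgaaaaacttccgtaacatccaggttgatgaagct
Gm6988: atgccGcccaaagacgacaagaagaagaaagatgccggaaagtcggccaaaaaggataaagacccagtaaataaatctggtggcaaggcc
Rps25: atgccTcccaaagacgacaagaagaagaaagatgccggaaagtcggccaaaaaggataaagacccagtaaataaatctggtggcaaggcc
Each pair differs at 1 of the 90 bases shown. Over the whole overlap the pseudogene stretches were 99.6% (Gm10145) and 99.1% (Gm6988) identical to their best coding transcript.

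The unnamed transcripts fell into 4 structural classes of very unequal level. The most common were 1102 chains of several exons at a locus that also holds a named transcript, with a median length of 2888 bases and a median mean FPKM of 1.69. Another 233 had several exons at a locus with no named transcript, with a median length of 4419 bases and a median of 1.61 FPKM. The 231 single-exon transcripts without a strand were short, at a median of 329 bases, and their median was 3.44 FPKM. The remaining 23 had a single exon and a strand, a median of 1235 bases and 4.73 FPKM. Named transcripts had a median length of 1974 bases and 3.89 FPKM.

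Most abundant unnamed transcripts were in the strandless single-exon class. Of 51 with a mean of 100 FPKM or more, 39 were of that class, 11 had several exons and 1 had a single exon with a strand. Those 51 held 99.3% of the FPKM of all unnamed transcripts, and the 10 highest alone held 72.1%. The strandless single-exon class made up 53.0% to 57.0% of all FPKM in a library, against 2.03% to 3.37% for the far more numerous chains at named loci. All unnamed transcripts together made up 66.2% to 71.9% of FPKM per library. The named transcript Rn18s-rs5, an 18S rRNA sequence, made up 12.2% to 16.7%. Its share was lowest in the 2 nuclei libraries of 0 h (12.4% and 12.2%), as was that of the 10 highest unnamed transcripts (45.7% and 45.9%). A link between these shares was not tested.

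**Figure D1:**
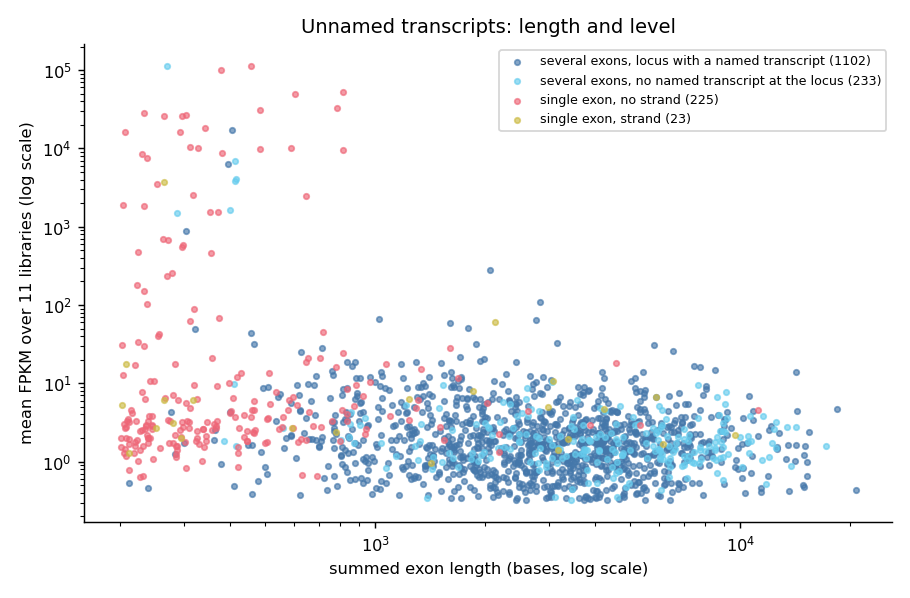
Summed exon length in bases against mean FPKM over 11 libraries, both on log scales, with 1 point per unnamed transcript above 0 and colour for structural class. Points at or above 100 FPKM, 51 in all, are mostly short single-exon transcripts without a strand, while chains of several exons gather between about 1 and 10 FPKM.

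FPKM was at least 1 in all 11 libraries for 369 unnamed transcripts and in only 1 library for 198. By class, that breadth was reached by 155 of the 231 strandless single exons (67.1%) and 17 of the 23 with a strand, but by 149 of the 1102 chains at named loci (13.5%) and 48 of the 233 others (20.6%). Lengths ran from 201 bases (MSTRG.1247.1, within an exon of Syne1, 0.752 to 3.76 FPKM) to 20715 bases (MSTRG.7312.2 at Neat1, 0 to 3.74 FPKM). The 6 transcripts at 0 in every library lie on 4 sequences outside GENCODE M21, and nothing on those sequences was above 0. In all, 1385 of the 1589 reached FPKM 1 in at least 2 libraries and were tested.

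Most unnamed transcripts lay over a named one. In all, 1101 overlapped a named transcript of the table on the same strand, 11 on the opposite strand only and 4 with no strand to compare. Of the 467 others with a named transcript on their chromosome, 89 lay within 10 kb of one and 378 farther away, at a median distance of 97868 bases. The members spread over 1235 loci, 989 of which hold a single unnamed transcript, and 1105 of them (69.5%) shared a locus with a named transcript. Against the fuller GENCODE M21 annotation, the span of all chains of several exons (1102 and 233) reached over an annotated exon. Spans were compared from start to end, so the chains' own exons need not overlap it. Of the 231 strandless single-exon transcripts, 103 lay on an annotated exon, 54 in an intron, 68 between genes and 6 off the annotated sequences.

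The high FPKM came from the intronic and intergenic ones. The 68 between genes held 47.0% of the FPKM of all unnamed transcripts and the 54 in introns held 32.4%, while the 103 on exons held 0.0728%. Between genes here means between GENCODE genes. Of the 71 single-exon transcripts so placed, with or without a strand, 29 lay inside a RefSeq gene. Of the 118 single-exon transcripts on an annotated exon, with or without a strand, 92 lay on processed pseudogenes and 22 on protein-coding genes. By chromosome, unnamed transcripts were 31.2% of the transcripts on chromosome 10 (157 of 503), 30.6% on chromosome 14 and 29.7% on chromosome 17. Chromosome 3 had the lowest share of the autosomes, at 12.4%, yet carried 16.1% of the FPKM of unnamed transcripts. It holds MSTRG.9012.1, the unnamed transcript of highest mean FPKM. The mitochondrial chromosome held 33 transcripts and none without a name.

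Of the 4662 loci tested, 1227 hold an unnamed transcript, but that share is not a match for the gene lists below. A listed gene counts only through a named transcript at its locus. Of all 1235 loci with an unnamed transcript, 815 also hold a named one and 420 do not. The share among all loci with a named transcript was not counted, so the counts below cannot be read as particular to these lists. Among lists of genes given in the table, 3 of 12 immediate early genes (Fosl1, Ccn1 and Ccn2), 3 of 13 ATF4-response genes (Shmt2, Slc7a5 and Slc3a2) and 6 of 11 secreted or matrix genes (Col1a1, Col1a2, Col3a1, Col4a1, Col4a2 and Hspg2) had an unnamed transcript at their locus. Of 5 nuclear long non-coding RNAs, Malat1, Neat1 and Snhg12 had one. So did Nes among 4 neural progenitor markers, and none of the 4 mitochondrial RNAs on the list.

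The 3 unnamed transcripts of highest level were about as abundant as each other and far above the rest. MSTRG.9012.1 (chr3:5860316-5860771), between genes and 109021 bases from the nearest named transcript, Gm8797, stood between 103224 and 126597 FPKM with a median of 113252. MSTRG.14716.1 (chr8:15519762-15520139), also between genes, stood between 91220 and 113633. MSTRG.3182.3 (chr11:108920908-109012128, plus strand) is a chain of 2 exons with a summed length of 268 bases, and its span reaches over Axin2, a feedback inhibitor of Wnt signalling. In mitochondria its FPKM was 103442 and 107355 at 0 h, 124772 and 123148 at 1 h, then 135077 and 132006 at 2 h. The nuclei libraries of 0 h held 70820 and 68066, the single library of 1 h 126591, and those of 2 h 124784 and 122131. Nuclei at 0 h were thus the lowest libraries, and no other group reached down to them.

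The other 7 of the top 10 ranged from 22373 to 61165 FPKM over the libraries. MSTRG.12430.1 on chromosome 6 and MSTRG.7151.1 on chromosome 18 lie between GENCODE genes, MSTRG.7151.1 within the RefSeq gene Gm30821. MSTRG.5948.1 lies in an intron of Cmss1, MSTRG.12376.1 in one of Cdk8 (a Mediator kinase), MSTRG.4094.1 in one of Jarid2 (a Polycomb cofactor), MSTRG.6695.1 in one of Gm26561 and MSTRG.3652.1 in one of Gphn (the synaptic scaffold gephyrin). All 7 lack a strand. Across the 11 libraries, the scaled log2 levels of the top 10 correlated with each other at 0.46 to 0.98, so their changes are not separate observations.

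**Figure D2:**
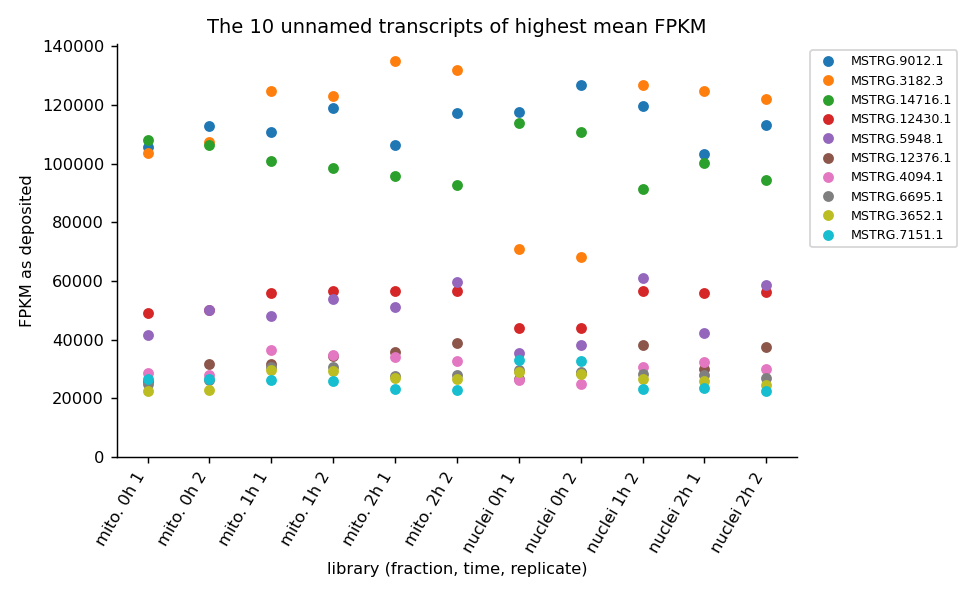
FPKM, as deposited, of the 10 unnamed transcripts of highest mean, with 1 point per library in the order of fraction, time and replicate. MSTRG.3182.3 stands at 70820 and 68066 in nuclei at 0 h and at 103442 or more in every other library.

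The locus over Gm24270 shows that single unnamed transcripts can be unstable where their sum is not. MSTRG.15924.5 reached 12863 FPKM in mitochondria 0 h replicate 2 and 14678 in mitochondria 2 h replicate 1, against 1580 and 906 in the partner libraries. MSTRG.15924.2 took the opposite values, 1294 and 351 against 9688 and 9039 in the partners. The sum of the 5 transcripts stayed between 14862 and 18953 FPKM in every library. On scaled sums, the locus was higher than at 0 h in mitochondria at 1 h (log2 difference 0.43 ± 0.07 SE, adjusted p = 0.013) and 2 h (0.43 ± 0.07, adjusted p = 0.016) and in nuclei at 1 h (0.60 ± 0.09, adjusted p = 0.023) and 2 h (0.40 ± 0.07, adjusted p = 0.025), by limma with Benjamini-Hochberg adjustment. These differences depend on the scaling: the deposited sums were 14862 and 15433 in mitochondria 0 h against 15178 and 15426 after 2 h, and in nuclei all later libraries (15959 to 17376) lay below those of 0 h (17846 and 18953). None of the single transcripts of the locus passed the threshold.

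**Figure D3:**
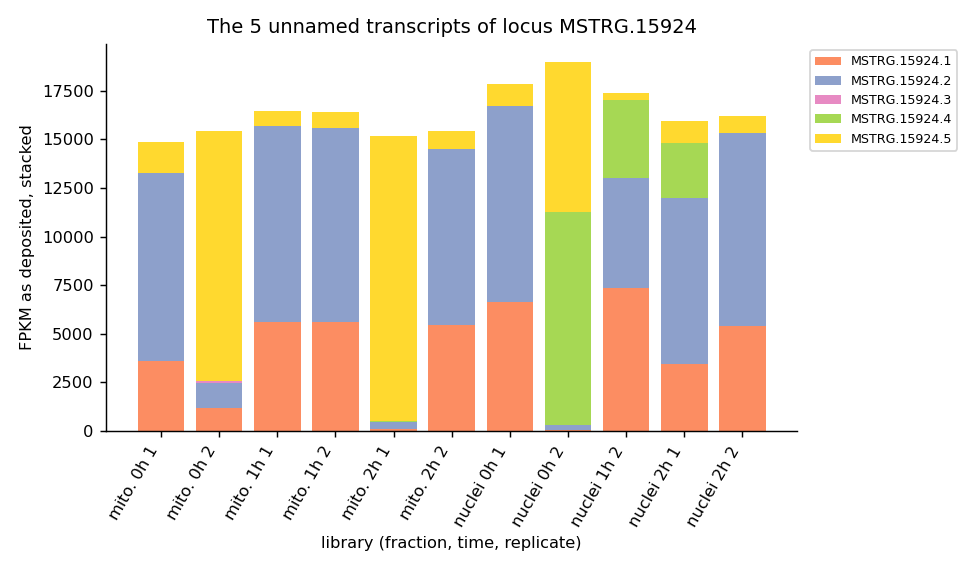
Stacked FPKM, as deposited, of the 5 unnamed transcripts of locus MSTRG.15924 in each library. The stacks stay between 14862 and 18953, while the transcript that fills most of a stack changes between replicates.

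Whether mitochondria and nuclei differ in the share of FPKM held by unnamed transcripts was asked first. The share was 70.5% ± 1.61 (SD, n = 6) in mitochondria and 68.4% ± 1.95 (SD, n = 5) in nuclei. The difference of 2.01 percentage points did not pass an exact two-sided permutation test over libraries (p = 0.0996). The 2 nuclei libraries of 0 h were lowest, at 66.2% and 67.2%. With the mitochondrial chromosome left out of the total, the shares were 72.6% ± 1.05 (n = 6) and 70.3% ± 1.52 (n = 5), and the difference of 2.35 points passed (exact permutation p = 0.026). As a share of the number of transcripts at FPKM 1 or more, the difference turned to -0.35 points (exact permutation p = 0.727).

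Changes over time were tested on log2(scaled FPKM + 1), where each library was divided by a factor that sets 3296 named nuclear transcripts level. Without that scaling, the median difference over all tested transcripts was -0.20 and -0.33 for mitochondria at 1 h and 2 h, and -0.58 and -0.49 for nuclei. Directions below are relative to that shift, and all comparisons with 0 h within a fraction share its 0 h libraries. Nuclei 1 h has a single library and is assumed to vary like the other groups.

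In mitochondria, 33 unnamed transcripts rose and 5 fell at 1 h, and 28 rose and 1 fell at 2 h, of 1385 tested (limma, adjusted p under 0.05). Over all 6856 transcripts tested, 1.3% rose and 1.24% fell at 1 h, and 1.43% rose and 0.452% fell at 2 h. In nuclei, 23 rose and 6 fell at 1 h, against 0.642% and 0.35% of all transcripts. At 2 h in nuclei, 30 rose and 4 fell, against 1.27% and 0.379%. On FPKM as deposited the split shifted towards lower values, with 24 higher and 14 lower in mitochondria at 1 h, 15 and 39 at 2 h, and in nuclei 13 and 89 at 1 h and 20 and 112 at 2 h. Leaving out the 3 libraries that stood apart left 4, 3, 15 and 13 transcripts past the threshold in the same order. The median log2 difference over the tested unnamed transcripts was 0.00 and -0.13 in mitochondria and -0.25 and -0.21 in nuclei, beside 0.02, -0.01, -0.04 and -0.03 over all transcripts.

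The transcripts that rose were mostly strandless single exons. Of 225 tested in that class, 25 rose in mitochondria at 1 h and 23 at 2 h, and 21 and 24 rose in nuclei. Among 1137 chains of several exons, 7, 4, 2 and 5 rose. Under deposited FPKM, 8 of the 23 that rose in nuclei at 1 h and 9 of the 30 at 2 h had the opposite sign, among them MSTRG.14716.1, MSTRG.6695.1 and MSTRG.3652.1 of the 10 most abundant. In mitochondria 4 of 33 and 3 of 28 had the opposite sign. Quantile normalization turned the sign of 6, 7, 4 and 5 of the transcripts that rose.

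MSTRG.3182.3 and MSTRG.1775.1 kept the sign of their rise under all 3 scalings in all 4 comparisons, as MSTRG.3762.1 and MSTRG.1881.1 did in 3 of them, the exception for both being mitochondria at 1 h. MSTRG.3182.3 rose by a log2 difference of 1.55 ± 0.05 in nuclei at 1 h (adjusted p = 8.3e-05) and 1.42 ± 0.04 at 2 h, and by 0.54 ± 0.04 and 0.75 ± 0.04 in mitochondria. In the gene table, which counts 12 libraries by annotated gene, Axin2 itself rose in the same 4 comparisons, by 0.95 ± 0.30 and 1.54 ± 0.30 in mitochondria and 2.11 ± 0.30 and 2.07 ± 0.30 in nuclei. There 16.9%, 25.5%, 7.12% and 24.1% of 11609 genes passed. The reads of MSTRG.3182.3 may be counted in Axin2, so the gene table is not an independent measurement of it.

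MSTRG.3762.1 (chr12:99645045-99645690), in an intron of the lincRNA Gm19951, had FPKM of 1104 and 1089 in nuclei 0 h, 2577 in the library of 1 h, then 2792 and 2685 in those of 2 h. The mitochondria libraries held 2875 and 2776 at baseline, 2613 and 2550 after 1 h, then 3219 and 3096 after 2 h. Nuclei at 0 h lay below every other library. The rise in nuclei was 1.91 ± 0.04 at 1 h (adjusted p = 1.3e-05) and 1.91 ± 0.03 at 2 h. In mitochondria it rose by 0.57 ± 0.03 at 2 h, while its call at 1 h (0.18 ± 0.03) turned to -0.13 on FPKM as deposited.

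MSTRG.1881.1 (chr10:105238319-105238551), in an intron of Tmtc2, followed the same order. Its FPKM was 1065 and 1032 in nuclei 0 h against 2134 after 1 h and 2193 and 2103 after 2 h. Mitochondria held 1726 and 1811 at baseline, 2060 and 2062 after 1 h, then 2127 and 2107 after 2 h. Its rise in mitochondria at 1 h (0.53 ± 0.05) turned to -0.03 under quantile normalization. MSTRG.1775.1 (chr10:82955171-82955447), between genes and 171 bases from Gm4799, held 163 and 157 FPKM in nuclei 0 h, 332 after 1 h, then 305 and 298 after 2 h. In mitochondria it stood at 185 and 190, then 284 and 299, then 291 and 304. In both fractions its 0 h libraries lay below all later ones, and the rise in nuclei at 1 h was 1.72 ± 0.09 (adjusted p = 0.00048).

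**Figure D4:**
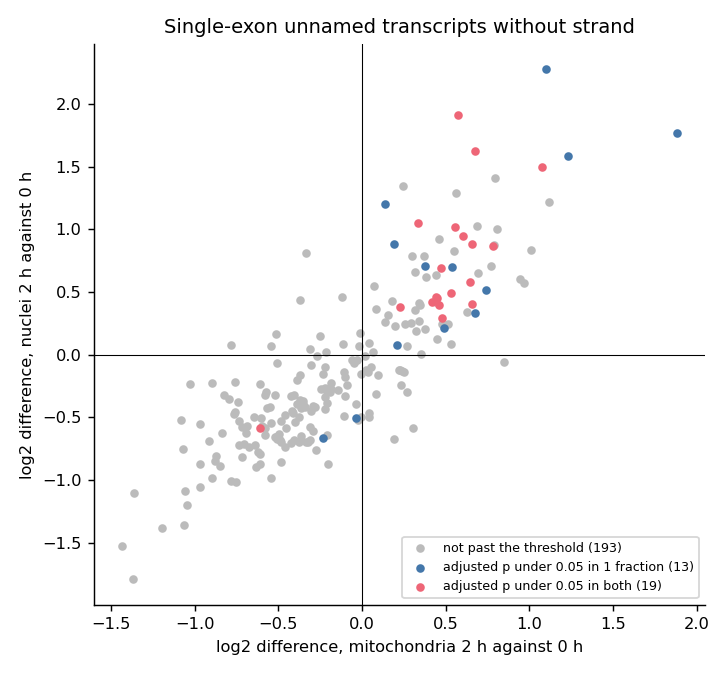
Log2 difference between 2 h and 0 h in mitochondria (horizontal) and nuclei (vertical) for 225 single-exon unnamed transcripts without a strand, on scaled FPKM. Red points, 19 in all, passed the threshold in both fractions and blue points, 13 in all, in 1 fraction; of the red points, 18 lie above 0 on both axes and 1 below 0 on both.

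Fewer fell. MSTRG.2853.1 (chr11:86811832-86816395), a single exon of 4564 bases between genes and 54267 bases from Cltc, held 26.24 and 24.99 FPKM in mitochondria at baseline, 15.8 and 15.1 after 1 h, then 12.56 and 12.05 after 2 h. Nuclei held 28.3 and 28.1, then 15.0, then 12.9 and 11.6. Its 2 h libraries were the lowest in both fractions, and it fell by 0.61 on the log2 scale in mitochondria (adjusted p = 0.024) and by 0.58 in nuclei (adjusted p = 0.033). MSTRG.9167.1, in an intron of Spata5, stood at 868 and 861 FPKM in nuclei 0 h and 425, 415 and 393 afterwards, a fall of 0.34 at 1 h and 0.51 at 2 h. In mitochondria at 1 h the scaled value of MSTRG.9167.1 instead rose by 0.31 ± 0.04. MSTRG.16950.1, 13 bases from Gm5643, fell in nuclei at 2 h from 6.99 and 6.29 FPKM to 2.69 and 2.25. MSTRG.1865.1 fell in mitochondria at 1 h from 134 and 125 FPKM to 74.4 and 74.6.

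For several chains of several exons, another transcript of the locus stood lower where the unnamed one stood higher. MSTRG.12534.6 at Calu (calumenin, a calcium-binding protein of the secretory pathway) was listed at 0 in both libraries of mitochondria 0 h and reached 4.35 and 4.87 FPKM after 1 h and 5.198 and 5.267 after 2 h. In nuclei it was listed at 0 in both 0 h libraries, stood at 0.0469 at 1 h, and reached 5.69 and 4.08 at 2 h. It passed in mitochondria at 1 h (adjusted p = 0.0044) and 2 h (adjusted p = 0.0023) and in nuclei at 2 h (adjusted p = 0.0023). The 2 main named Calu transcripts were lower in mitochondria at 1 h than at 0 h, one with 25.3 and 19.0 FPKM at 0 h and 6.74 and 10.5 at 1 h, and the other with 11.7 and 11.1, then 3.09 and 3.68. The whole Calu locus was lower at 1 h by a log2 difference of -0.48 ± 0.07, and the gene table gave -0.37 ± 0.08 for Calu.

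MSTRG.1387.1 over Gm10145 rose in nuclei, from 0.363 and 0 FPKM at 0 h to 3.05 at 1 h and 3.68 and 3.97 at 2 h. The named Gm10145 transcript of the same locus stood at 8.54 and 6.67 FPKM in nuclei 0 h and at 1.64, 1.64 and 1.30 afterwards. The locus sum differed by -0.03 ± 0.21 at 1 h (adjusted p = 0.95) and 0.04 ± 0.18 at 2 h (adjusted p = 0.90). MSTRG.5364.4 at Tcf20, a transcriptional coregulator, was listed at 0 in both nuclei libraries of 0 h and reached 5.52 and 8.40 FPKM at 2 h. The other unnamed Tcf20 chain, MSTRG.5364.1, stood at 14.05 FPKM in both nuclei libraries of 0 h and at 4.27 and 1.63 after 2 h, and the locus sum differed by 0.08 ± 0.11 (adjusted p = 0.68).

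At the loci of 3 chains that fell in mitochondria at 1 h, the gene also fell. At Aebp1, an extracellular matrix protein, MSTRG.2116.1 fell in mitochondria at 1 h from 6.49 and 7.73 to 1.67 and 2.56 FPKM, and Aebp1 in the gene table fell by 0.64 on the log2 scale. At Masp1, a protease of the complement lectin pathway, MSTRG.5764.2 fell from 7.37 and 7.14 to 3.93 and 3.86 FPKM, and Masp1 fell by 0.53. At Tnrc6b, a component of miRNA silencing complexes, MSTRG.5325.2 stood at 2.94 and 2.65 FPKM at 0 h and was listed at 0 at 1 h, and Tnrc6b fell by 0.31. At Snrnp70, a protein of the U1 splicing particle, the gene table did not follow. There MSTRG.13737.1 fell from 8.40 and 6.52 FPKM to 0 and 0.0857 (log2 difference -2.79 ± 0.48, adjusted p = 0.043), while Snrnp70 in the gene table differed by 0.09 ± 0.08 (adjusted p = 0.50). The same reads can enter both tables.

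In nuclei at 1 h, 5 of the 6 falls were chains at named loci whose value in the single library was low. MSTRG.5070.2 at Dap and MSTRG.3954.1 at Hist1h2ak were listed at 0 in that library alone of the 11. MSTRG.16786.1 at G6pdx (the first enzyme of the pentose phosphate pathway) fell from 9.45 and 9.15 to 0.55 FPKM, while the named G6pdx transcript stood at 6.63 there and at 0 to 3.90 elsewhere. G6pdx in the gene table, with 2 libraries for that group, was higher by 0.28 ± 0.08 (adjusted p = 0.028). MSTRG.10707.1 at Sfpq, a splicing factor, stood at 7.25 and 7.75 FPKM before and 2.03 after.

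The 2 h response differed between the fractions for 7 unnamed transcripts, with 1 more positive and 6 more negative in mitochondria, against 0.131% and 0.16% of all transcripts. MSTRG.3762.1 had a difference of responses of -1.34 ± 0.04 (adjusted p = 0.00022), and MSTRG.1881.1 of -0.95 ± 0.07 (adjusted p = 0.0090). MSTRG.13052.1 (-0.72 ± 0.04), MSTRG.3182.3 (-0.67 ± 0.06), MSTRG.5394.1 (-0.46 ± 0.04) and MSTRG.4094.1 (-0.23 ± 0.02) also rose less in mitochondria. For these 6 the 0 h libraries of nuclei were lower than those of mitochondria: at 0 h, mitochondria exceeded nuclei by 1.47 ± 0.03 for MSTRG.3762.1, 0.86 ± 0.05 for MSTRG.1881.1, 0.80 ± 0.03 for MSTRG.13052.1 and 0.71 ± 0.04 for MSTRG.3182.3. The difference was 0.61 ± 0.03 for MSTRG.5394.1 and 0.26 ± 0.02 for MSTRG.4094.1. With quantile normalization none of the 7 passed in limma, and 91 of all unnamed transcripts had an unadjusted p under 0.05 there.

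The 1 with the opposite sign was MSTRG.826.3, a chain of 50 exons at Tpr, a filament protein of the nuclear pore basket. It stood at 9.69 and 9.60 FPKM in nuclei 0 h and 5.11 at 1 h, and at 0.00658 and 0 at 2 h. In mitochondria it never exceeded 0.0451. Its difference of responses missed the threshold in 13 of 17 alternative settings. Other Tpr isoforms exchanged levels between libraries: one named Tpr transcript stood at 10.9 in mitochondria 0 h replicate 1 and 0 in replicate 2, where another stood at 0 and 8.92. The locus sum differed by -0.19 ± 0.08 in nuclei at 2 h (adjusted p = 0.21), and Tpr in the gene table by -0.21 ± 0.08 (adjusted p = 0.036).

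**Figure D5:**
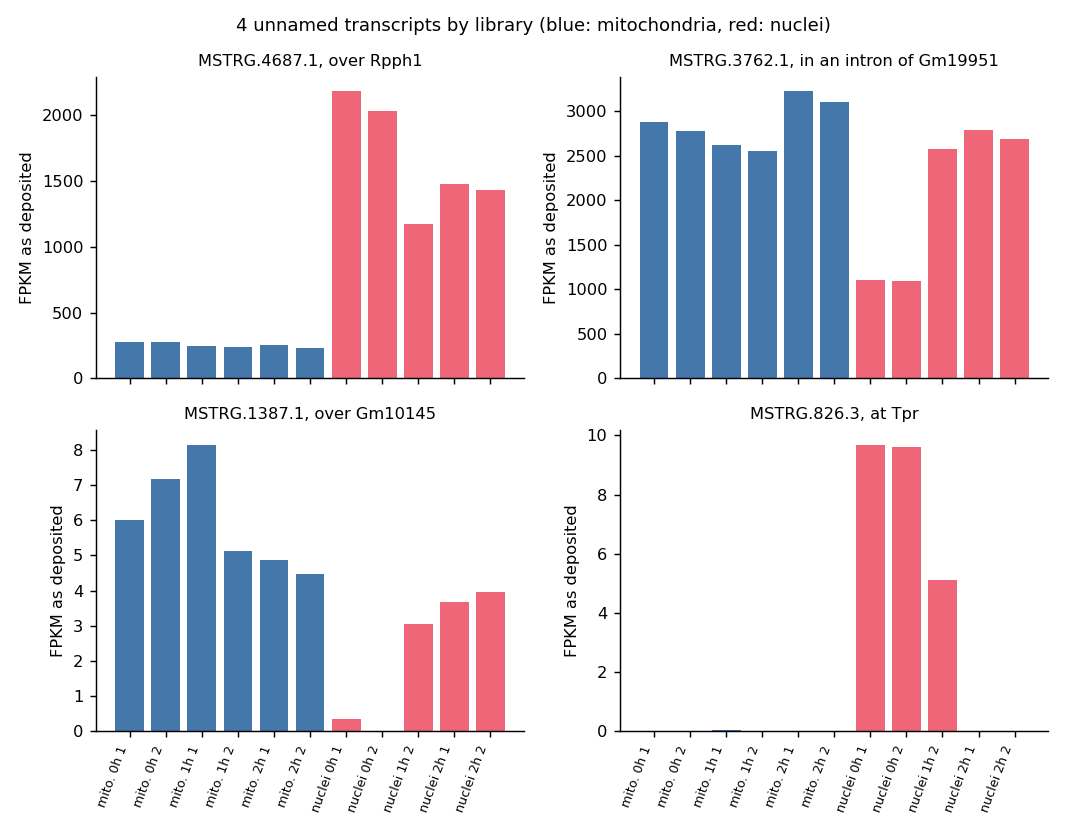
FPKM as deposited in each library for MSTRG.4687.1, MSTRG.3762.1, MSTRG.1387.1 and MSTRG.826.3, with mitochondria in blue and nuclei in red. MSTRG.4687.1 is above 1176 in all 5 nuclei libraries and below 277 in all mitochondria libraries, and the others separate nuclei at 0 h from later times.

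Over the 3 times, 16 unnamed transcripts were higher in mitochondria and 46 higher in nuclei, against 0.948% and 2.79% of all transcripts. Of the 46 higher in nuclei, 33 were strandless single exons and 11 (7 and 4) chains of several exons. By position, 20 lay between genes, 13 in introns and 13 on exons, with chains placed by their whole span. In bulk fractions, more RNA of a transcript per organelle and a different purity of the preparation cannot be told apart.

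Among the 46 higher in nuclei, MSTRG.4687.1 over Rpph1 had the largest difference. It stood at 276, 273, 243, 239, 254 and 234 FPKM in the mitochondria libraries, and at 2183, 2033, 1176, 1479 and 1431 in those of nuclei. No values overlapped, and mitochondria were lower by a log2 difference of -2.67 ± 0.03 (adjusted p = 5.9e-08). The difference was -2.82 at 0 h, -2.55 at 1 h and -2.64 at 2 h. The named Rpph1 transcript ran in parallel, from 124 to 166 FPKM in mitochondria and from 665 to 1655 in nuclei, and Rpph1 in the gene table differed by -2.69 ± 0.05, where 22.6% of genes passed. Rpph1 in the gene table fell in nuclei by 0.56 on the log2 scale at 1 h and at 2 h, while MSTRG.4687.1 differed by -0.16 ± 0.05 (adjusted p = 0.43) and 0.06 ± 0.04 (adjusted p = 0.67).

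Of the others higher in nuclei, 3 short ones between genes and 1 chain are described. MSTRG.402.1 (chr1:72564211-72564528), between GENCODE genes and within the RefSeq gene Smarcal1, stood at 27.9 and 28.8 FPKM in nuclei 0 h, 8.86 at 1 h, and 8.41 and 11.7 at 2 h, against 1.82 to 3.85 in mitochondria (-1.91 ± 0.12, adjusted p = 0.00034). MSTRG.6472.1 on chromosome 17 stood at 419 to 1203 FPKM in nuclei and 167 to 280 in mitochondria (-1.82 ± 0.18, adjusted p = 0.0029). MSTRG.12684.1 (chr6:47780473-47780682), 942 bases from the Y RNA gene Rny3, stood at 4.39 to 6.47 FPKM in nuclei and 1.013 to 2.144 in mitochondria. MSTRG.1376.2 at Ccn2, a matricellular growth factor, stood at 8.15 to 11.6 FPKM in nuclei and 0.244 to 6.07 in mitochondria. The named Ccn2 transcript went the other way, at 3.38 to 6.77 in nuclei and 5.76 to 14.6 in mitochondria. Ccn2 in the gene table differed by -0.38 ± 0.05 between mitochondria and nuclei.

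The 16 higher in mitochondria differed by a median of 0.57 on the log2 scale (0.08 to 1.73), beside a median of 1.06 (0.07 to 2.67) for the 46 higher in nuclei. MSTRG.7242.1 (chr19:4061048-4066369), between genes, stood at 3.25 to 4.68 FPKM in mitochondria and 1.30 to 3.14 in nuclei, with a log2 difference of 0.61 ± 0.07 (adjusted p = 0.0079). MSTRG.14870.1 and MSTRG.6052.1 differed by 0.54 ± 0.09 and 0.40 ± 0.07, and MSTRG.1387.1 by 1.13 ± 0.13. MSTRG.14096.4 at Ucp2, a carrier of the inner mitochondrial membrane, stood at 1.48 to 4.89 FPKM in mitochondria and 0 to 1.55 in nuclei (1.73 ± 0.30, adjusted p = 0.033). Its named partner stood at 4.28 to 7.94 and 6.36 to 8.29. MSTRG.14096.4 and MSTRG.6052.1 each missed the threshold in 12 of 18 alternative settings, and MSTRG.14870.1 in 9 of 19.

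Of the 92 single-exon transcripts over processed pseudogenes, none passed the threshold in any of the 6 comparisons (limma), and from 0 to 3 of them had an unadjusted p under 0.05. Their levels were high in the libraries that stood apart. Of the 92, 44 (47.8%) were higher by over 1 on the log2 scale in all 3 of those libraries than in their partners and none was lower, against 4 of the 156 other single-exon transcripts. Among named transcripts, 295 were higher and 292 lower of 5471. MSTRG.3813.1 over Gm6988 stood at 56.2, 47.8 and 55.0 FPKM in the 3 libraries and 5.61, 4.75 and 5.78 in their partners, and between 3.13 and 4.93 in the other 5. MSTRG.1674.1 over Gm19810 stood at 10.5, 7.45 and 15.4 against 0.342, 0.157 and 0.406.

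Of the 92, 85 could be cut to a single-exon pseudogene and compared with coding transcripts. Their best matches were 66 different coding genes, 24 of the 85 being matches to ribosomal protein genes and 7 to Eef1a1, an elongation factor. Identity had a median of 98.0% and a minimum of 94.0%. For 40 of the 42 that were higher in the 3 libraries, the matching coding gene was lower in all 3 in the gene table, as it was for 37 of the 43 others. That gene was lower by over 1 on the log2 scale in 18 of the 42 and in 14 of the 43. These differences were taken before quantile normalization. The share of all genes lower in the 3 libraries was not counted, so the counts cannot be read as particular to these genes. For MSTRG.3813.1, Rps25 was lower by 2.17 in mitochondria 0 h, 1.84 in mitochondria 1 h and 1.86 in nuclei 0 h (gene-table log2 values, set-apart library against partner). The part that this split plays in the comparisons of time was not tested beyond leaving those libraries out.

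Chains at named loci were the least repeatable. The median absolute log2 difference between 2 libraries of a group was 0.62 for them, 0.47 for chains at loci without a named transcript and 0.18 for strandless single exons, beside 0.21 for named transcripts. Of all unnamed transcripts at named loci, with a single exon or several, 651 reached 5 FPKM somewhere. Of these, 360 (55.3%) were listed at 0 in some library, against 24 of 242 other unnamed transcripts and 559 of 3740 named ones (14.9%). At the 815 loci shared with named transcripts, unnamed ones held a median of 27.4% of the FPKM and the larger part of it at 163 loci. Across the 11 libraries, the level of an unnamed transcript and the summed named transcripts of its locus had a median correlation of -0.66. This covers 916 unnamed transcripts at named loci, with a single exon or several. It is a description, since both divide the same reads of a locus.

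Summed per locus, more passed the threshold than per transcript. Of 1227 loci with an unnamed transcript, 167 and 176 passed in mitochondria at 1 h and 2 h, where 11.2% and 13.5% of all 4662 loci did. In nuclei 47 and 104 passed, against 2.27% and 8.02% of all loci. Between the fractions 158 passed, against 11.7%. The counts correspond to 13.6%, 14.3%, 3.83%, 8.48% and 12.9% of the loci with an unnamed transcript.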

How the data were processed

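Per the submitters' processing notes, HISAT2, StringTie and edgeR were used with builds GRCm38 and mm10; versions, roles and settings are not given in the sources used here. The authors deposited FPKM values and mean coverage per transcript (a signal column), per the file headers, for 11 libraries, and a gene table of log2 RPM (reads per gene relative to all reads of the library) for 12. All per-sample columns were used (0 left out). Of the 5564 named transcripts, 4629 have the same versioned identifier in GENCODE M21 (GRCm38), all with the same chromosome, strand and start. 62.8% of these have the same end.

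FPKM were divided by a library's median ratio to the geometric mean over 3296 named nuclear transcripts. Transcripts with FPKM of at least 1 in at least 2 libraries entered limma 3.58.1 (R 4.3.3, trend and robust) on log2(FPKM + 1), 6856 in all, with 1 mean per group. Benjamini-Hochberg adjustment ran over all of them, with a threshold of 0.05. Fold changes on that scale understate those of low transcripts. The fit was tested on simulated data. Gene-table values were quantile-normalized and fitted the same way for 11609 genes above log2 0 in at least 2 libraries, a filter chosen after the table was seen. Shares were compared by an exact two-sided permutation test (scipy 1.17.1). Pseudogene stretches were compared with coding transcripts by blastn 2.17.0 (E value up to 1e-05), and short sequences with edlib 1.3.9.post1. Sequences come from GENCODE M21 transcripts.

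Transcripts described one by one are the 10 of highest mean FPKM, up to 5 in each direction per comparison whose libraries do not overlap, and the longest and shortest; others were chosen after their values were seen. Results for some transcripts that this rule names are not reported here. The members and lists were chosen with earlier results of these data known. The alternatives were other scalings, pseudocounts, filters, a replicate block, a split term and libraries left out.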

Additional observations from a re-analysis of the deposited data

Results flagged for a closer look

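The 2 h response differed between mitochondria and nuclei for 7 unnamed transcripts, by the test of the difference itself in limma over all transcripts. The difference of responses, mitochondria minus nuclei on the log2(scaled FPKM + 1) scale, was -1.34 for MSTRG.3762.1, -0.95 for MSTRG.1881.1, -0.72 for MSTRG.13052.1, -0.67 for MSTRG.3182.3, -0.46 for MSTRG.5394.1 and -0.23 for MSTRG.4094.1. For MSTRG.826.3 at Tpr it was 3.08, a fitted value that rests on libraries near 0 and is no bound on a fold. Leaving out the 3 libraries that stood apart left 3 unnamed transcripts past the threshold for this difference.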

How the results depend on the processing

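The counts of unnamed transcripts past the threshold depended most on scaling and on the libraries kept. Fewer libraries also estimate the spread less well, so a lower count need not reflect which library was left out. In the order mitochondria 1 h, mitochondria 2 h, nuclei 1 h, nuclei 2 h, between fractions, and difference of 2 h responses, the counts were 38, 29, 29, 34, 62 and 7. FPKM as deposited gave 54, 102 and 132 for mitochondria 2 h, nuclei 1 h and nuclei 2 h. Quantile normalization gave 9, 4, 5, 18 and 0 for the comparisons other than between fractions. The 8 libraries outside the split, chosen after seeing the data, gave 4, 3, 15, 13, 16 and 3. Leaving out 1 library at a time gave 20 to 29, 19 to 28, 17 to 23, 21 to 29, 32 to 49 and 2 to 8, where a lone library is assumed to vary like the other groups. For each comparison's fewest calls the library left out was mitochondria 0 h replicate 1, either mitochondria 2 h library, nuclei 0 h replicate 1, nuclei 0 h replicate 1 and mitochondria 2 h replicate 2; for the difference of responses each 2 h library and nuclei 0 h replicate 1 gave 2. Correlations of same-numbered deviations ran from -0.53 to 0.53. The largest in size (-0.53, -0.51 and 0.53) were all between groups that hold a library that stood apart. They therefore cannot decide whether replicate numbers pair the libraries. Of 225 tested strandless single exons, replicate 2 was higher in all 5 groups of 2 libraries for 41 and lower in all 5 for 1. Among 5471 named transcripts these counts were 205 and 96. With a replicate block the counts were 37, 39, 38, 42 and 59, and 14 for the difference of responses. A split term, other pseudocounts and filters kept all 6 counts within 1.5 times.

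The difference in FPKM share (2.01 points) became 2.35 without the mitochondrial chromosome and -0.35 as a share of transcript numbers, and ran from 1.46 to 2.66 with 1 library left out; it passed the threshold without mitochondria 0 h replicate 1 and without nuclei 1 h replicate 2 (exact permutation p = 0.0476 each). The count of unnamed transcripts near a named one without overlap was 37 at 1 kb and 179 at 50 kb against 89 at 10 kb. Of 700 results for 51 pairs of a transcript named one by one and a comparison, 478 stayed past the threshold, 222 missed it and none changed sign. Called results outside those pairs did change sign with the scaling, such as MSTRG.3762.1 and MSTRG.1881.1 in mitochondria at 1 h and MSTRG.14716.1 in nuclei. The 4 pairs that passed under every setting were MSTRG.1775.1, MSTRG.1881.1 and MSTRG.3762.1 in nuclei at 1 h and MSTRG.4687.1 between fractions. The causes were not tested. The median coverage of tested unnamed transcripts, 3.16 to 9.09 per base and library, bounds the precision of single values.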
